A study of Mus musculus with 6 samples.

Results

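Hyaluronan and versican form the soft, water-rich matrix of a healing wound, and 9 genes that build, bind or break down this matrix were followed here in fibroblasts of the infarct scar. They were chosen by function, with earlier results of these data known, and matched by symbol. All 9 were found among the 42256 genes counted. They are the hyaluronan synthases Has1, Has2 and Has3, the binding partners Vcan, Cd44 and Tnfaip6, and the depolymerising proteins Hyal1, Hyal2 and Cemip. The RNA came from cells positive for PDGFRa, a surface marker of cardiac fibroblasts, which were sorted out of digested scar tissue of mouse hearts 7 days after myocardial infarction. The mice had a mixed 129S2/C57Bl6 background, and their age is not given in the sources used here. The 4 Htr2b_cKO libraries came from Htr2bfl/flPostnMCM/+ mice, in which Htr2b, a serotonin receptor gene, is floxed and a tamoxifen-inducible Cre sits at 1 allele of Postn, which encodes periostin and is turned on in activated fibroblasts. The 2 control libraries came from Htr2bfl/fl mice, which carry the floxed gene and no Cre. Tamoxifen chow was given to every mouse, controls included, and began 1 week ahead of the infarct. No control carried the Cre, so effects of the Cre, of the changed Postn allele and of losing the receptor cannot be told apart. The Cre acts only in cells that have expressed Postn, while the sort took every PDGFRa+ cell. In bulk RNA, fewer cells of a type and less RNA per cell cannot be told apart.

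Hyaluronan is a long unbranched sugar chain that the Has enzymes make at the plasma membrane and push straight out of the cell. Versican, the product of Vcan, is a large chondroitin sulphate proteoglycan that binds the chain, and CD44 is the chain's main receptor on cells. TSG-6, the product of Tnfaip6, moves proteins called heavy chains onto hyaluronan and so crosslinks it. In wounds this matrix comes early and is later replaced by collagen, while hyaluronidases and CEMIP cut the chain into shorter pieces.

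Library totals ran from 28533427 to 37392496 estimated counts, and a count of 0 allows up to 0.0781 to 0.108 CPM, counts scaled by TMM to a common library size. These limits cover counting error only. Htr2b had 0, 3, 29 and 4 counts in the Htr2b_cKO libraries, against 13 and 7 in the controls. The library labelled Htr2b_cKO 3 thus stood above both controls, and Htr2b itself gave a log2 fold change of -0.11 (SE 1.18, edgeR adjusted p = 0.982). Postn, the site of the Cre, stood at 982 to 2312 CPM in Htr2b_cKO and 1586 and 2309 CPM in control libraries, and Pdgfra at 668 to 1126 CPM in Htr2b_cKO and 733 and 1237 CPM in control libraries. Xist and the Y-linked genes marked the library labelled Htr2b_cKO 4 as the only male. The fibroblast markers Col3a1 and Col1a1 led the 8 genes of their list, which summed to 77790 to 130300 CPM in Htr2b_cKO libraries and 92330 to 116500 CPM in controls. The 10 macrophage markers summed to 972, 2496, 4532 and 550 CPM in the Htr2b_cKO libraries, against 2942 and 1037 CPM in the controls, and none was at 0 in any library. The 10 lymphocyte markers, led by Ighm and Igkc, summed to 212 to 1270 CPM in Htr2b_cKO libraries and 1503 to 1550 CPM in controls, with Cd3e, Cd8a and Ms4a1 at 0 in some libraries. Endothelial markers summed to 46.1 to 86.4 CPM in Htr2b_cKO libraries and 46.7 and 252 CPM in controls. Mesothelial and epicardial markers summed to 226 to 302 CPM in Htr2b_cKO libraries and 297 to 365 CPM in controls. Neutrophil, mural, cardiomyocyte and Schwann markers each stayed at or below 144 CPM. The part of these cells in the results was not tested, and no marker passed the test.

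Tnfaip6 was the most abundant of the 9 transcripts per length and Has3 the least, in each of the 6 libraries. Levels were compared between genes as CPM per kb of exon, where the length is that of all annotated exons of a gene together. This allows for length only in part, because the transcripts made can be shorter. Tnfaip6 ran from 66.5 to 218 CPM per kb over the 6 libraries, rank 360 by its mean among 15840 tested genes. Next came Vcan (24.6 to 54.3 CPM per kb), Has1 (27.3 to 62.2) and Cd44 (19.7 to 43.1), whose order among themselves changed from library to library, so these 3 were not separated. Hyal2 followed at 6.71 to 9.35 CPM per kb and stood above Has2 (3.75 to 8.42) in 5 of the 6 libraries. Cemip (0.824 to 3.51) and Hyal1 (1.15 to 2.49) also changed places, with Cemip above in 4 libraries. Has3 stayed between 0.017 and 0.154 CPM per kb.

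**Figure D1:**
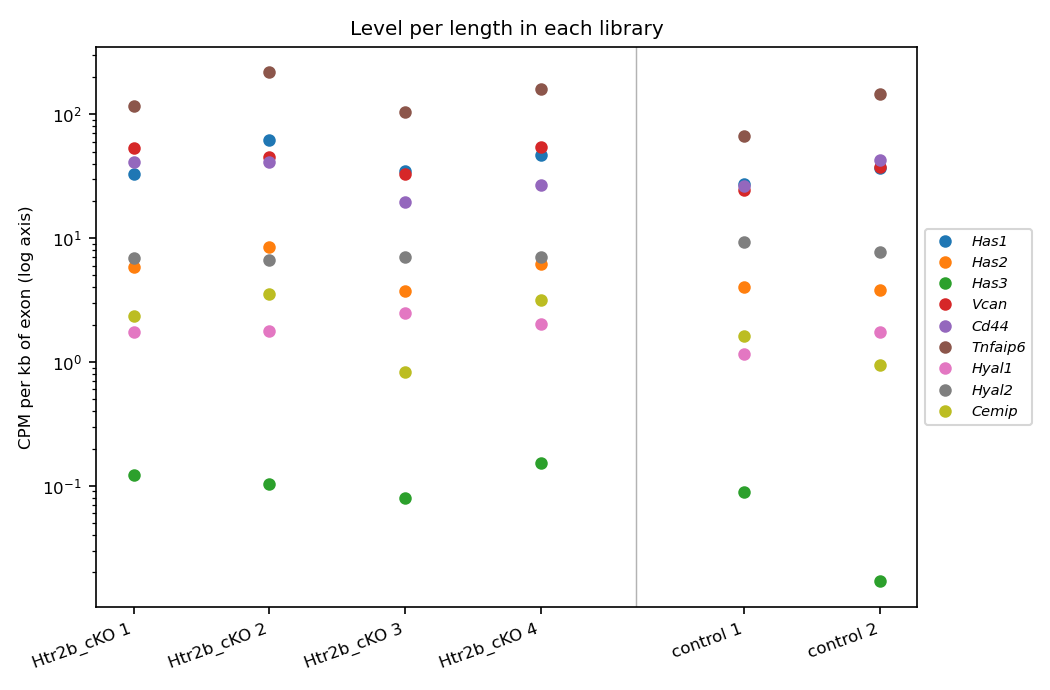
Level of each gene in CPM per kb of exon (log axis) in the 4 Htr2b_cKO libraries, left, and the 2 control libraries, right. Tnfaip6 lies on top at 66.5 to 218, Vcan, Has1 and Cd44 lie together between 19.7 and 62.2, and Has3 lies lowest at 0.017 to 0.154.

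None of the 9 genes passed the test between Htr2b_cKO and control libraries, although 7 of the 9 estimates were above 0. By edgeR's quasi-likelihood test, 0 of 9 passed at a Benjamini-Hochberg adjusted p under 0.05, with adjusted p values of 0.52 to 0.938. Over all genes 0.0189% passed, which is 3 of 15840. DESeq2 and limma voom also called 0 of 9, beside 0.647% and 0.0126% of the genes each tested. At an unadjusted p under 0.05, edgeR counted 1 of 9 (9.59% of 15840 genes) and limma voom 1 (9.39% of the same genes), Vcan in both. The edgeR count was 0 of 9 with RLE scaling (9.47% of all genes), the legacy dispersion (8.88%) and the authors' factors (7.75%). With no count filter it was 1, Vcan (6.77%), and with GC content and exon length corrected for it was 1, Hyal1 (5.62%). DESeq2 counted 3, beside 5.86% of 23769 genes. Its share includes genes of low count that edgeR and limma voom left out, so it is not like the other shares. The median log2 fold change of the 9 was 0.50, against 0.00 over all genes tested, of which 50% were above 0. This median was 0.26 without control 1 and 0.34 under a correction for GC content and exon length. The groups did not overlap for 2 of the 9, Hyal1 and Hyal2, which is near the 19.6% of all genes for which they did not. With so few controls, no permutation test over 4 and 2 libraries could go below p = 0.0667.

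Has1 was the main synthase transcript in every library. It stood at 147.5, 281, 158 and 212 CPM in the Htr2b_cKO libraries, against 123 and 166 CPM in the controls. The control 2 level lay among the Htr2b_cKO levels, so the groups overlapped, and Htr2b_cKO 2 was the highest. The means were 199.6 ± 61.0 CPM in Htr2b_cKO and 145 ± 30.3 CPM in control libraries (SD, n = 4 and 2), with a log2 fold change of 0.46 (SE 0.28, edgeR adjusted p = 0.637). It was 0.26 without Htr2b_cKO 2, 0.26 without control 1 and 0.70 without control 2. Per kb of exon, Has1 made up 84.4% to 90.2% of the summed synthase level in the Htr2b_cKO libraries, against 87.0% and 90.5% in the controls, so the groups overlapped. Has1 (ENSMUSG00000003665) lies on the minus strand of chromosome 17, from 17843323 to 17855205 in mm10.

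Has2, the synthase that mice need for heart development, stood at 24.98, 35.7, 15.9 and 26.3 CPM in the Htr2b_cKO libraries, against 16.9 and 16.2 CPM in the controls. Of the Htr2b_cKO libraries 3 lay above both controls, and the library labelled Htr2b_cKO 3 lay below them. This gave a log2 fold change of 0.63 (SE 0.29, edgeR adjusted p = 0.547). It was 0.435 without Htr2b_cKO 2, the library with the most Has2. Without the library labelled Htr2b_cKO 3 it was 0.82 (edgeR adjusted p = 0.231). With trends on GC content and exon length removed within libraries (the GC and length correction) it came to 0.34. Has2 made up 9.64% to 15.3% of the synthase level in Htr2b_cKO libraries and 12.8% and 9.44% in the controls. Has2 (ENSMUSG00000022367) lies on the minus strand of chromosome 15, from 56665627 to 56694539, and its antisense partner Has2os had at most 1.84 CPM.

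Has3 was close to the counting limit, with 22, 22, 17 and 33 counts in the Htr2b_cKO libraries, against 22 and 3 counts in the controls. The 3 counts of control 2 have an exact 95% Poisson interval of 0.619 to 8.77 counts, and control 1 lay among the Htr2b_cKO libraries. The log2 fold change of 0.97 (SE 0.69, edgeR adjusted p = 0.683) became 0.36 without control 2 and 2.71 without control 1, where it rests on those 3 counts. Has3 (ENSMUSG00000031910, chromosome 8 from 106870242 to 106884566, plus strand) overlaps the gene Chtf8 on the other strand, which had 106 to 142 CPM. The kit kept strand, but the strand setting of the counting is not given in the sources used here, so reads of the shared end are uncertain.

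Vcan had the smallest unadjusted p of the 9. It stood at 778, 651, 474 and 785 CPM in the Htr2b_cKO libraries, against 355.5 and 539 CPM in the controls. The library labelled Htr2b_cKO 3 lay between the controls, and the other 3 lay above both. By edgeR the log2 fold change was 0.59 (SE 0.26, unadjusted p = 0.0499, adjusted p = 0.52), and its interval of 2 SEs runs from 0.07 to 1.10. It was 0.74 without the library labelled Htr2b_cKO 3, 0.32 without control 1, 0.93 without control 2, and 0.30 under the GC and length correction. The unadjusted edgeR p sits at the threshold. By edgeR it was 0.052 with RLE scaling, 0.0522 with the legacy dispersion, 0.0647 with the authors' factors and 0.147 under the GC and length correction. It was 0.0332 by edgeR with no count filter, 0.0194 by DESeq2 and 0.0448 by limma voom. Macrophage markers were highest in the library labelled Htr2b_cKO 3 and in control 1, the libraries with the lowest Vcan. The fibroblast marker sum was lowest in these same libraries, at 77790 and 92330 CPM, and endothelial markers were highest in control 1, at 252 CPM. The part of these cells in the result was not tested. Vcan (ENSMUSG00000021614) lies on the minus strand of chromosome 13, from 89655312 to 89742509, and counts per gene do not separate its splice forms.

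The genes nearest to Vcan across the 6 libraries were not matrix genes. Likeness was the root mean square difference in log2 CPM after centring each gene on its mean over the 6 libraries. Among 9656 genes with a mean log2 CPM of at least 3, Usf3 (0.0424), Zfx (0.063), Camsap2 (0.0652), Rbbp8 (0.0673) and Golga4 (0.0701) came first, where the median gene differed by 0.437. Usf3 and Zfx encode transcription factors, Camsap2 a microtubule minus-end protein, Rbbp8 a DNA end resection factor and Golga4 a protein of the Golgi. Their exons span 7755 to 13602 bp, against a median of 4781 bp over the genes compared and 14462 bp for Vcan. Of the 6 other genes of the set that reached this level Has2 was the nearest, in place 1956 with a difference of 0.318, and Has3 and Hyal1 were not compared.

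Cd44 did not lean one way. It stood at 278, 277, 133 and 183 CPM in the Htr2b_cKO libraries, against 179.5 and 292 CPM in the controls. The controls spanned most of the range and the groups overlapped. Its log2 fold change of -0.11 (SE 0.34, edgeR adjusted p = 0.938) has an interval of 2 SEs from -0.79 to 0.56. It turned positive without the library labelled Htr2b_cKO 3 (0.07) and without control 2 (0.29), and was -0.43 without control 1. The lowest Cd44 was in the library labelled Htr2b_cKO 3, which had the highest macrophage marker sum. Macrophages also express CD44, and their part in these levels was not tested. Cd44 (ENSMUSG00000005087) lies on the minus strand of chromosome 2, from 102811141 to 102901665.

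Tnfaip6 stood at 117, 218, 104 and 160.5 CPM per kb in the Htr2b_cKO libraries, against 66.5 and 146.5 CPM per kb in the controls. The control libraries differed 2.2-fold from each other, and control 2 lay above 2 of the Htr2b_cKO libraries. A log2 fold change of 0.49 resulted (SE 0.41, edgeR adjusted p = 0.728). It was 0.03 without control 1, 1.18 without control 2 and 0.26 without Htr2b_cKO 2, so single libraries decide its size. Tnfaip6 (ENSMUSG00000053475) lies on the plus strand of chromosome 2, from 52038009 to 52056686. Its transcript was the shortest of the 9, with 1710 bp of exon.

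**Figure D2:**
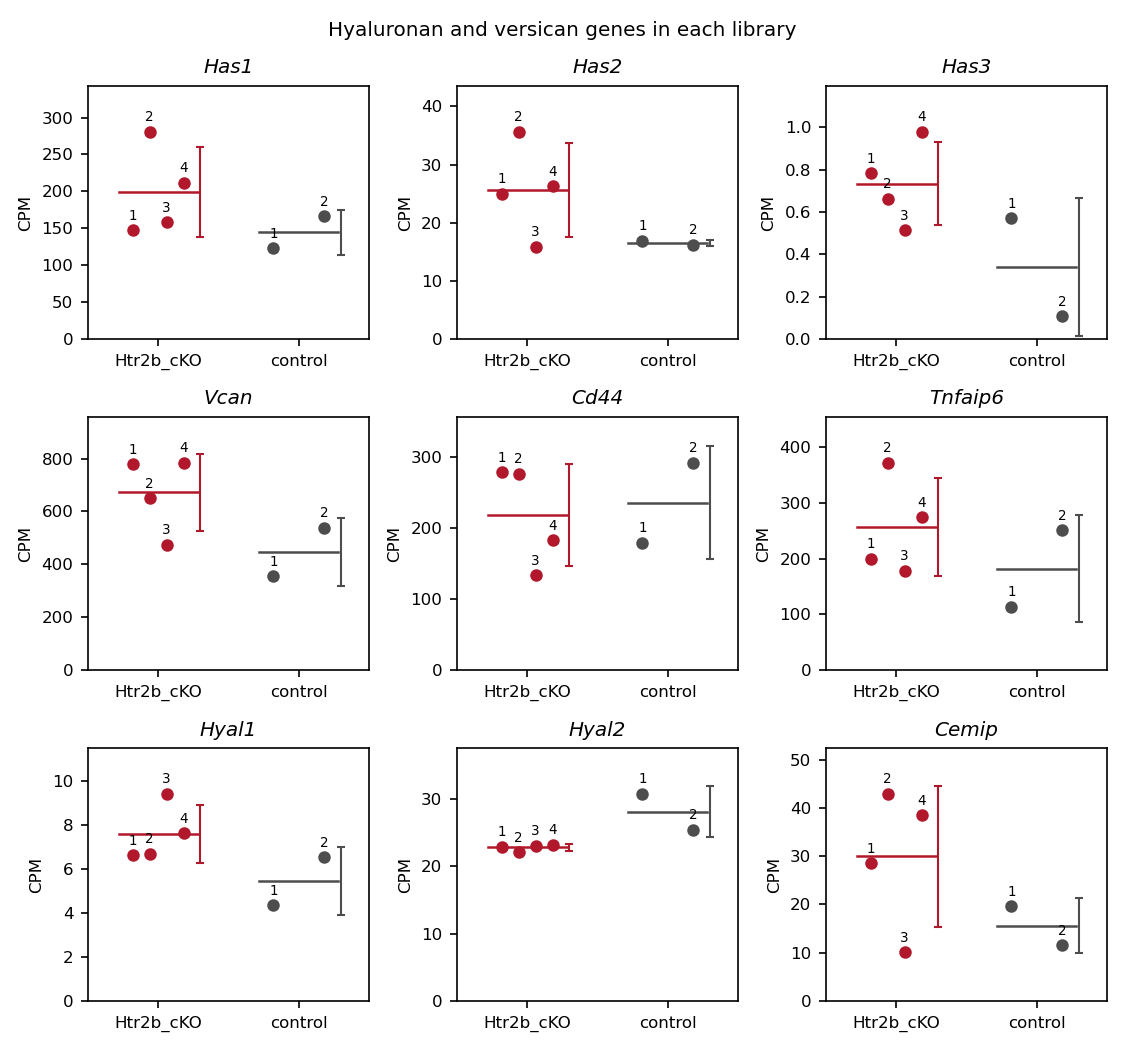
CPM of each of the 9 genes in the Htr2b_cKO libraries, red, and the control libraries, grey, with the library number beside each point, the mean as a line and the SD as a bar. The groups overlap in 7 panels, all 4 Htr2b_cKO points lie above both controls for Hyal1, and all 4 lie below both for Hyal2.

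Neither hyaluronidase gene passed the test. Hyal2, the hyaluronidase anchored at the cell surface, had 22.9, 22.1, 23.0 and 23.2 CPM in the Htr2b_cKO libraries, against 30.8 and 25.4 CPM in the controls. It was the steadiest of the 9, its Htr2b_cKO libraries lay within 0.49 CPM of SD, and all 4 lay below both controls. Its log2 fold change of -0.30 (SE 0.14, edgeR adjusted p = 0.552) shrank to -0.16 when control 1 was left out and to -0.12 with the GC and length correction. Over all genes 8.98% lay wholly below the controls.

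Hyal1, which breaks hyaluronan down in the lysosome, had 6.63, 6.69, 9.42 and 7.63 CPM in the Htr2b_cKO libraries, against 4.35 and 6.54 CPM in the controls. All 4 Htr2b_cKO libraries lay above both controls, the lowest by less than 0.1 CPM. Over all genes 10.6% lay wholly above. edgeR gave a log2 fold change of 0.50 (SE 0.27, adjusted p = 0.606), 0.21 without control 1 and 0.81 without control 2. Per kb of exon, Hyal1 made up 20.2% to 26.3% of the pair's level in the Htr2b_cKO libraries, against 11.0% and 18.3% in the controls. With Hyal1 wholly above and Hyal2 wholly below the controls, this share had to separate the groups, so it adds nothing to those 2 results. It does not depend on library scaling, was computed after the values of both genes were seen, and carries no test. Hyal1 (ENSMUSG00000010051) spans chromosome 9 from 107576927 to 107581710 and Hyal2 (ENSMUSG00000010047) from 107567945 to 107572779, both on the plus strand. Naa80, at 9.45 to 15.5 CPM, and Hyal3, at 0.302 CPM or less, overlap Hyal1 on the same strand, so the division of reads among them is uncertain.

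Cemip, which cuts hyaluronan outside the hyaluronidase family, varied more than any other gene of the 9 except Has3. It stood at 28.6, 43.0, 10.1 and 38.5 CPM in the Htr2b_cKO libraries, against 19.7 and 11.6 CPM in the controls. The library labelled Htr2b_cKO 3 was the lowest of all 6, and the other 3 Htr2b_cKO libraries lay above both controls. By edgeR the log2 fold change was 0.93 (SE 0.58, adjusted p = 0.656), with an interval of 2 SEs from -0.23 to 2.10. Without the library labelled Htr2b_cKO 3 it was 1.23 (edgeR adjusted p = 0.227), and without control 2 it was 0.62 (edgeR adjusted p = 0.826). Cemip (ENSMUSG00000052353) lies on the minus strand of chromosome 7, from 83932857 to 84086502.

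**Figure D3:**
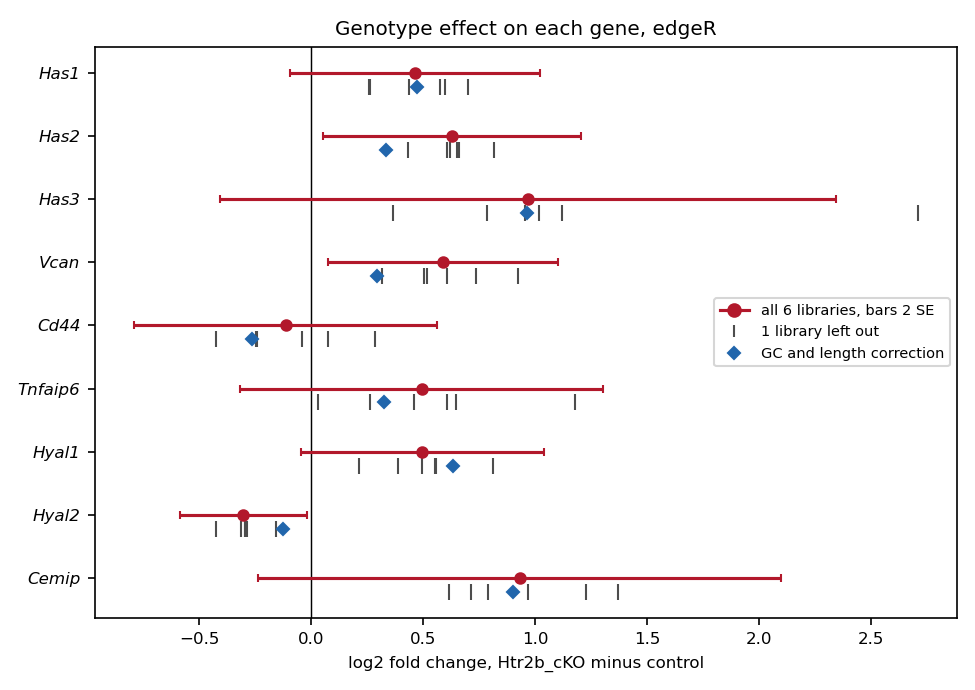
Log2 fold change of each gene, Htr2b_cKO minus control, from all 6 libraries (red, bars 2 SE), with 1 library left out in turn (grey ticks) and after the GC and length correction (blue). Only the bars of Has2, Vcan and Hyal2 stay clear of 0, and the grey ticks of Cd44 fall on both sides of it. A bar of 2 SE that clears 0 does not mean an unadjusted p under 0.05. Unadjusted edgeR p values were 0.0595 for Has2, 0.0499 for Vcan and 0.0626 for Hyal2, and none passed after adjustment.

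Leaving out a library can only keep or add separation between the groups. Without the library labelled Htr2b_cKO 3, Has2, Has3, Vcan, Hyal1 and Cemip lay wholly above both controls, where 16.3% of all genes did, and Hyal2 lay wholly below, where 15% did. Still 0 of 9 passed the edgeR test, where 0.0128% of all genes did, and at an unadjusted p under 0.05 it counted 3 of 9 (12.6% of all genes). Leaving out Htr2b_cKO 1, Htr2b_cKO 2 or Htr2b_cKO 4 added no gene of the 9. Without control 1, Has3 and Hyal1 lay wholly above the remaining control, and Cd44 and Hyal2 lay below. Has3 had 3 counts in that control. The share of all genes was not computed for this case, so these positions cannot be read as a result about the genes. Without control 2, Has1, Vcan, Hyal1 and Tnfaip6 lay wholly above the remaining control, where 24% of all genes did, and Hyal2 lay below, where 23.7% did. It then counted 4 of 9 at an unadjusted p under 0.05 (10.4% of all genes), and 0 of 9 without control 1 (3.25%).

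Has2 and Cemip put the 6 libraries in the same order, low to high: Htr2b_cKO 3, control 2, control 1, Htr2b_cKO 1, Htr2b_cKO 4 and Htr2b_cKO 2. Among the 36 pairs of the 9 genes this was the only one with the full order in common. It was found in 14 genes other than Has2, Cemip among them, which is 0.0884% of the genes tested. Such a small share is not particular to this order, as the orders of the 9 genes had shares of 0.0821% to 0.751%. The lowest Has2 levels also lay close together, at 15.9, 16.2 and 16.9 CPM, so their order is uncertain. Has1 and Tnfaip6 came close, with Htr2b_cKO 2 and Htr2b_cKO 4 the highest and control 1 the lowest for both. These orders were noticed in the values and carry no test.

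**Figure D4:**
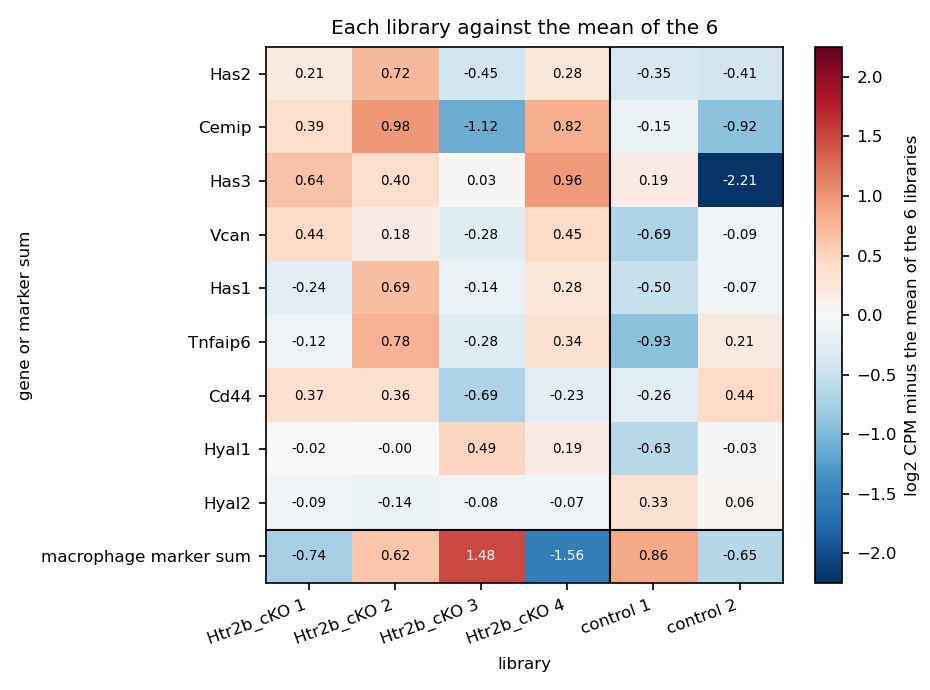
Log2 CPM of each gene in each library minus the gene's mean over the 6 libraries, with the summed macrophage markers in the bottom row. Htr2b_cKO 2 is high for Has1, Has2, Tnfaip6 and Cemip, the library labelled Htr2b_cKO 3 is low for Has2, Cemip and Cd44, and the macrophage sum is highest in it and lowest in Htr2b_cKO 4.

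Promoter windows of 250 bases before to 50 after the start were taken from RefSeq (GRCm38.p6), where 7 of the 9 genes matched. Those of Has1 and Tnfaip6 are shown because these genes followed nearly the same order of libraries, Vcan for its smallest p, and Cemip for its spread. They lie at chr17:17855139-17855438 (minus strand), chr2:52037863-52038162 (plus), chr13:89742463-89742762 (minus) and chr7:84086456-84086755 (minus). Capitals mark matches, on either strand, to any of 6 motifs, which are spelled out beside their counts after the windows. No match overlaps another in these 4 windows.
Has1: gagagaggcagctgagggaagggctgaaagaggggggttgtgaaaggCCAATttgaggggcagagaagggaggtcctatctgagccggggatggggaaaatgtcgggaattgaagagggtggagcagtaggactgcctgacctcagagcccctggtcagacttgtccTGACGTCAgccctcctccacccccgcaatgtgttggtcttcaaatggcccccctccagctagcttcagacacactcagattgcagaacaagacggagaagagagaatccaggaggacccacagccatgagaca
Tnfaip6: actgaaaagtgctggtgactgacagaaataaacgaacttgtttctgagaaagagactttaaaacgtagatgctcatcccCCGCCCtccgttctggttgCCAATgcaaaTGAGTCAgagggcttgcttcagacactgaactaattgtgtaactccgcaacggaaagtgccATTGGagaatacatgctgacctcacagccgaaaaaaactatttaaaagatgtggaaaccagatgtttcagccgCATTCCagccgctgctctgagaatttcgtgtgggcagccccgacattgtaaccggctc
Vcan: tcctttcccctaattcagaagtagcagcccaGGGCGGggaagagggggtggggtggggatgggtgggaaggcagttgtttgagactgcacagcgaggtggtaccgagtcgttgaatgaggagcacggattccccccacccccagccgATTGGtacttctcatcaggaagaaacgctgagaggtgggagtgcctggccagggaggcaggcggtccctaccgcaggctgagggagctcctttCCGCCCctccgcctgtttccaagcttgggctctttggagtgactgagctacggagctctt
Cemip: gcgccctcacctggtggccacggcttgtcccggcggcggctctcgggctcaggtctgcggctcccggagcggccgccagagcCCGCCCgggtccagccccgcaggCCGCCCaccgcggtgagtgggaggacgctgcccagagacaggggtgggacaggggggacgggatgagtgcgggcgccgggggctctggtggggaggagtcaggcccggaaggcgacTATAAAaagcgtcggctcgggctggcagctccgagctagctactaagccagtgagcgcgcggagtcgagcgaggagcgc
The Has1 window holds TGACGTCA, the cyclic AMP response element, which begins 83 bases before the start and is found in 1.79% of 32851 windows. The Tnfaip6 window holds TGANTCA, the AP-1 motif, which begins 142 bases before the start and is found at any place in 7.81% of windows. It also holds the TEAD motif GGAATG (14.7%). The Cemip window holds TATAAA 29 bases before the start, and 13.6% of windows hold it at any place. CCAAT occurs in the Has1, Tnfaip6, Vcan and Hyal1 windows, 4 of 7, against 37.4% of all, and the GC box GGGCGG in 6 of 7, against 35.7%. No motif searched was shared by Has1 and Tnfaip6 other than CCAAT. A match is a string of letters and no evidence that a factor binds there.

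Other genes of the pathway gave no call. Of 70 listed genes 58 were tested, 0 passed by edgeR, DESeq2 or limma voom, 32 estimates were above 0, and the median log2 fold change of the 58 came to 0.04. At an unadjusted p under 0.05, 4 were higher by edgeR (6.6% of all genes) and 0 lower (2.99%). These 4 were Csgalnact2, Csgalnact1, Hmmr and Tlr4. The groups did not overlap for 7 of the 58, against 19.6% of all genes. Of these, Csgalnact2, Csgalnact1, Hmmr, Tlr4 and Ugp2 lay above the controls (10.6% of all genes), and Itih3 and Itih4 lay below (8.98%).

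Genes that supply the sugar precursors numbered 7, with 5 above 0. Ugp2, which makes UDP-glucose, had 124.5, 140.0, 211 and 121 CPM in Htr2b_cKO libraries, against 96.2 and 118 CPM in controls (log2 fold change 0.48, edgeR adjusted p = 0.59). Its estimate was 0.27 without the library labelled Htr2b_cKO 3 and 0.16 under the GC and length correction. Gfpt2, of the hexosamine route, had 296, 238, 282 and 277 CPM in Htr2b_cKO libraries, against 267 and 449 CPM in controls (log2 fold change -0.39, edgeR adjusted p = 0.601), with -0.72 without control 1 and 0.04 without control 2. Of 4 other turnover genes tested 3 were above 0, and Gusb, a lysosomal glucuronidase gene, had a log2 fold change of -0.10 (edgeR adjusted p = 0.912), which turned positive without control 1 (0.16) and under the GC and length correction (0.02). Hyal4, Hyal5, Hyal6 and Spam1 had no counts in any library.

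Among 7 other receptors, 3 were above 0. Hmmr, a hyaluronan-binding protein of dividing cells, had 30.6, 25.2, 21.7 and 23.0 CPM in Htr2b_cKO libraries, against 16.1 and 17.9 CPM in controls (log2 fold change 0.57, SE 0.18, edgeR adjusted p = 0.41), and 0.30 on the log2 scale under the GC and length correction. Tlr4, an innate immune receptor, had 29.2, 21.5, 30.1 and 24.5 CPM in Htr2b_cKO libraries, against 15.2 and 21.1 CPM in controls (log2 fold change 0.54, edgeR adjusted p = 0.472). Its estimate was 0.32 without control 1 and 0.18 under the GC and length correction. Of 9 crosslinking and link protein genes tested 3 were above 0. Itih4, a heavy chain gene, had 2.46, 1.66, 3.96 and 3.92 CPM in Htr2b_cKO libraries, against 4.71 and 4.85 CPM in controls, and C1qbp had a log2 fold change of -0.19, which was -0.32 without Htr2b_cKO 2 and -0.04 under the GC and length correction. Ptx3, a pentraxin that binds TSG-6, was chosen after its values were seen. It had 142, 351, 117 and 396 CPM in Htr2b_cKO libraries, against 101 and 341 CPM in controls, as wide a range in each group.

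Versican's partners and sister proteoglycans were above 0 for 7 of 9 tested. Tnc, the matricellular protein tenascin-C that binds versican, had 1837, 1046, 344 and 761 CPM in Htr2b_cKO libraries, against 466 and 395 CPM in controls. The library labelled Htr2b_cKO 3 was the lowest, as for Has2 and Cemip (log2 fold change 1.21, SE 0.63, edgeR adjusted p = 0.606). Without Htr2b_cKO 1, the library with the most Tnc, the estimate was 0.75. Bcan, brevican, had 4.21, 1.48, 2.02 and 1.96 CPM in Htr2b_cKO libraries, against 1.54 and 0.795 CPM in controls. Its log2 fold change of 0.98 was 0.60 without Htr2b_cKO 1, 1.57 without control 1 and 0.64 both without control 2 and under the authors' factors. Of 6 versican-cleaving proteases 4 were above 0, and the smallest p values were those of Adamts5 (log2 fold change 0.31, edgeR adjusted p = 0.661) and Adamts4 (0.27, adjusted p = 0.704). Adamts5 came to 0.13 without control 1, 0.52 without control 2 and 0.05 under the GC and length correction, and Adamts4 ran from 0.12 (control 1 left out) to 0.43 (control 2 left out), with 0.41 when the library labelled Htr2b_cKO 3 was dropped.

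Enzymes that build the chondroitin sulphate chains of versican were divided, 7 above and 9 below 0. Csgalnact2 and Csgalnact1, which start and extend the chain, were the pair with the smallest p. Csgalnact2 had 50.9, 52.3, 54.7 and 52.8 CPM in Htr2b_cKO libraries, against 23.9 and 41.3 CPM in controls (log2 fold change 0.70, SE 0.21, edgeR adjusted p = 0.401). Its estimate was 0.35 without control 1, 1.15 without control 2 and 0.29 under the GC and length correction. Csgalnact1 had 19.5, 29.3, 26.9 and 36.8 CPM in Htr2b_cKO libraries, against 18.3 and 18.1 CPM in controls (log2 fold change 0.63, SE 0.24, edgeR adjusted p = 0.472). Neither passed over all genes.

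**Figure D5:**
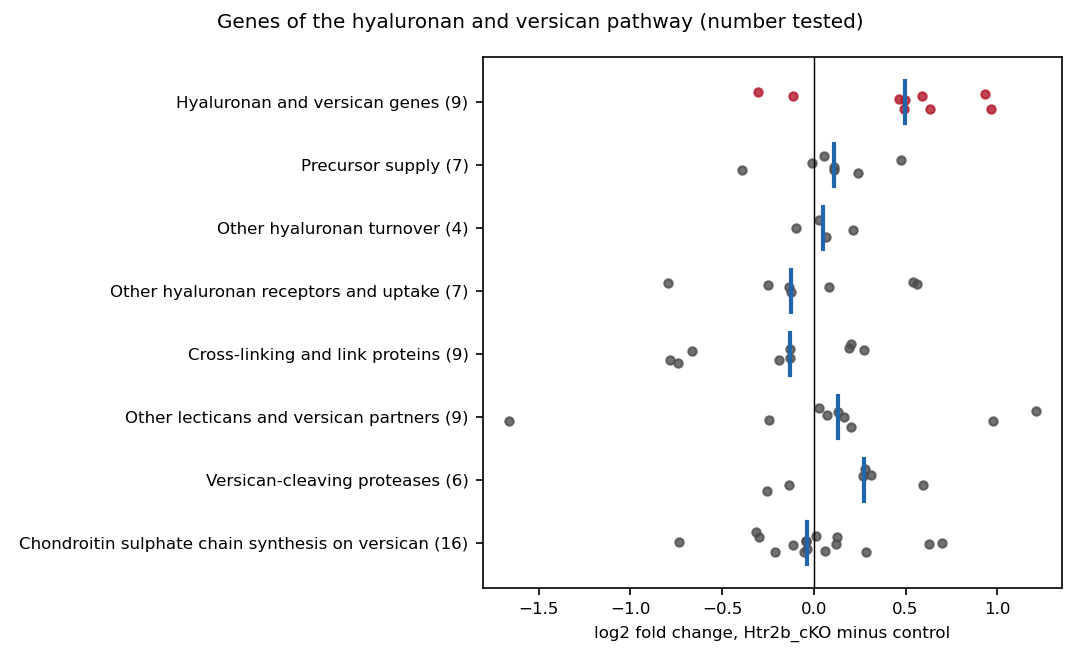
Log2 fold change, Htr2b_cKO minus control, of each tested gene in the 9-gene set (red) and in the 7 pathway lists (grey), with the median of each as a blue bar and the number tested in brackets. The medians of the lists run from -0.13 for the crosslinking genes to 0.27 for the proteases, and that of the 9 genes is 0.50.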

How the data were processed

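RNA was measured in 6 libraries, grouped by genotype label into 4 Htr2b_cKO and 2 control, and the series design speaks of separate animals. The authors deposited estimated counts per Ensembl gene, whole numbers that are not normalized and whose column names, per the file headers, are those of a transcript quantifier. They also deposited a normalized signal, used here only for its gene- and library-specific factors. DRAGEN, DESeq2 and mm10 are named per the submitters' processing notes, and no source used here gives the counting settings. The rounded counts were used as they stand. Symbols, positions and exon lengths came from a GENCODE annotation of mm10, in which all 42256 identifiers were found.

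The test was edgeR 4.0.16 (R 4.3.3) quasi-likelihood, two-sided, with TMM, filterByExpr, robust dispersions and genotype as its only term. It left 15840 genes, all 9 members included. P-values were adjusted over all genes, a call was an adjusted p under 0.05, and SE is the fold change over the square root of F. The script was tested on simulated data. CPM uses TMM-scaled sizes. All 15 pairs of libraries differed beyond sampling noise. Members and lists were chosen with earlier results of these data known. Named were the 9 genes, Htr2b, the marker genes shown, called list genes or else the 2 with the smallest p per list, and the 5 genes nearest to Vcan; 1 gene under this rule is not reported here. Alternatives were RLE scaling, no filter, DESeq2 1.42.0, limma 3.58.1 voom, the authors' factors, a GC and length correction, leaving out libraries, longest transcripts for the level per kb, and, added after seeing the data, edgeR's legacy dispersion.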

Additional observations from a re-analysis of the deposited data

Results flagged for a closer look

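Among the 4 Htr2b_cKO libraries, Htr2b_cKO 2 stood far from the others for C1qbp, at 57.3 CPM. The library labelled Htr2b_cKO 3 stood far from the others for Htr2b, at 0.876 CPM. Of 25 genes looked at in this way 2 were picked out, and chance picks about 1 in 20.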

How the results depend on the processing

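No paired analysis was possible because replicate numbers were given in accession order and pair no libraries. None of the 9 genes and none of the pathway genes was called under any alternative run. Over all genes 3 were called; the number was 5 with no filter, 105 with DESeq2, 5 without both Htr2b_cKO 3 and Htr2b_cKO 4, and 1 to 8 with 1 library left out (1 without control 1, 6 without control 2, 8 without Htr2b_cKO 4). The number of the 9 above 0 was 7 or 8 throughout. Every direction held among the 9 except that of Cd44, which was 0.24 without Htr2b_cKO 3 and 4 and ran from -0.43 to 0.29 with 1 library left out. Other reversals were Gusb, 0.0244 after the GC and length correction and -0.306 to 0.159 with 1 left out, and Gfpt2, which ran from -0.72 to 0.0407 with 1 left out. With the longest transcript as length, the mean Htr2b_cKO level was 2.52 CPM per kb for Hyal1, 7.69 for Hyal2 and 4.22 for Cemip, against 2.01, 6.93 and 2.45. The causes were not tested. With a control left out, the lone control is assumed to vary like the Htr2b_cKO libraries. Depth limits Has3 and Htr2b, which had 0 to 33 counts per library.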
